A study of Mus musculus with 6 samples.

Results

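The 34 genes described here encode the proteins that bring fatty acids into the heart muscle cell, activate them, carry them into mitochondria and break them down by β-oxidation. They were chosen by name from the count table, in which all 34 were found among 43629 named gene models, and all 34 had enough reads to be tested. Genes, and the lists and pairs used below, were chosen with earlier results of these data known. The tissue was dissected heart of male C57BL/6 mice on normal chow, from 3 old mice (22 months) and 3 young mice (2 months) with no other difference in genotype or treatment given in the labels. The design text calls the 3 samples of each age independent biological replicates, and the comparison asks how the RNA of these genes differs between the ages. Libraries held 13673856 to 15583364 counts. On the first principal component of all genes (56% of the variance) old 1 stood apart from the other old hearts, at 14.98 against 45.9 for old 2 and 48.0 for old 3, while young hearts lay between −38.3 and −33.4.

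Fatty acids are the main fuel of the adult heart. Lipoprotein lipase frees them from circulating triglycerides, carrier proteins take them across the membrane and bind them in the cytosol, and an acyl-CoA synthetase activates them. The carnitine shuttle then moves the acyl group into the mitochondrion, where 4 kinds of enzyme act in turn (acyl-CoA dehydrogenases, hydratase, hydroxyacyl-CoA dehydrogenases and thiolase) and electron transfer flavoprotein passes the electrons on. Malonyl-CoA, made by acetyl-CoA carboxylase, inhibits entry through the shuttle.

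In old hearts 7 of the 34 genes fell and 0 rose, and those that fell were an acyl-CoA synthetase, a thioesterase, 4 genes of the oxidation spiral and 1 of electron transfer. They are Acadvl, Hadh, Acot2, Etfdh, Echs1, Acads and Acsl1, with log2 fold changes of old over young between −1.21 (Acadvl) and −0.55 (Acsl1). A gene was said to rise or fall when edgeR's quasi-likelihood test gave a Benjamini-Hochberg adjusted p under 0.05 over the 14413 genes tested. The share of the 34 genes that fell was 20.6%, against 6.36% of all genes tested, while 8.72% of all genes tested rose. At an unadjusted p under 0.05 the edgeR test had 13 of the genes lower and 1 higher. The share of all genes at this unadjusted threshold was not computed, here or for the same counts below. DESeq2 had 12 lower and 0 higher at its adjusted threshold (8.04% of all genes were lower), and limma-voom 10 lower and 0 higher (6.38% of all genes were lower). The median log2 fold change was −0.31 over the 34 genes and 0.02 over all genes tested. Of the 34 genes 26 had a log2 fold change below 0 (76.5%), against 48.4% of all genes tested. The 3 old hearts lay below all 3 young hearts in 17 of the 34 genes (50%), where 18.4% of all genes tested did so, and above them in 2 (5.88%), where 18.8% of all genes did so.

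The old hearts were not alike. Each gene's level is given in CPM, its read count scaled to library size with TMM factors. Set against the mean of the young hearts, the median gene of the 34 stood at −0.25 in old 1, −0.34 in old 2 and −0.47 in old 3 on the log2 scale, while the median of all genes tested lay between −0.01 and 0.00 in these hearts. Below the lowest young heart lay 23 of the 34 genes in old 1, 23 in old 2 and 24 in old 3. Over all genes tested that share was 35.1% in old 1, 40.3% in old 2 and 39.3% in old 3. Without old 1 the edgeR test called 18 of the genes lower (52.9%, against 17.7% of all genes) and 2 higher (5.88%, against 20.1% of all genes). Without old 2 it called 4 lower (Acsl1, Acads and Hadh of the 7, and Cpt2), where 4.08% of all genes were lower. Hadh alone was called without old 3 (2.18% of all genes lower) and without young 3 (1.53%), and 0 genes without young 1 (1.24%) or young 2 (1.28%). Acadvl, Echs1, Etfdh and Acot2 thus lost their call in 5 of the 6 reduced sets, Acsl1 and Acads in 4 and Hadh in 2. Their largest edgeR adjusted p over these sets were 0.0982, 0.109, 0.107, 0.139, 0.106, 0.0977 and 0.0684, in the same order. DESeq2 and limma-voom were not run on these reduced sets. Of the genes not called with all hearts, only Cpt2 passed when a heart other than old 1 was left out (without old 2). On the first principal component old 1 was the old heart nearest the young hearts. Leaving it out on the basis of these same data favours stronger calls, so the values without old 1 below are not separate support.

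**Figure D1:**
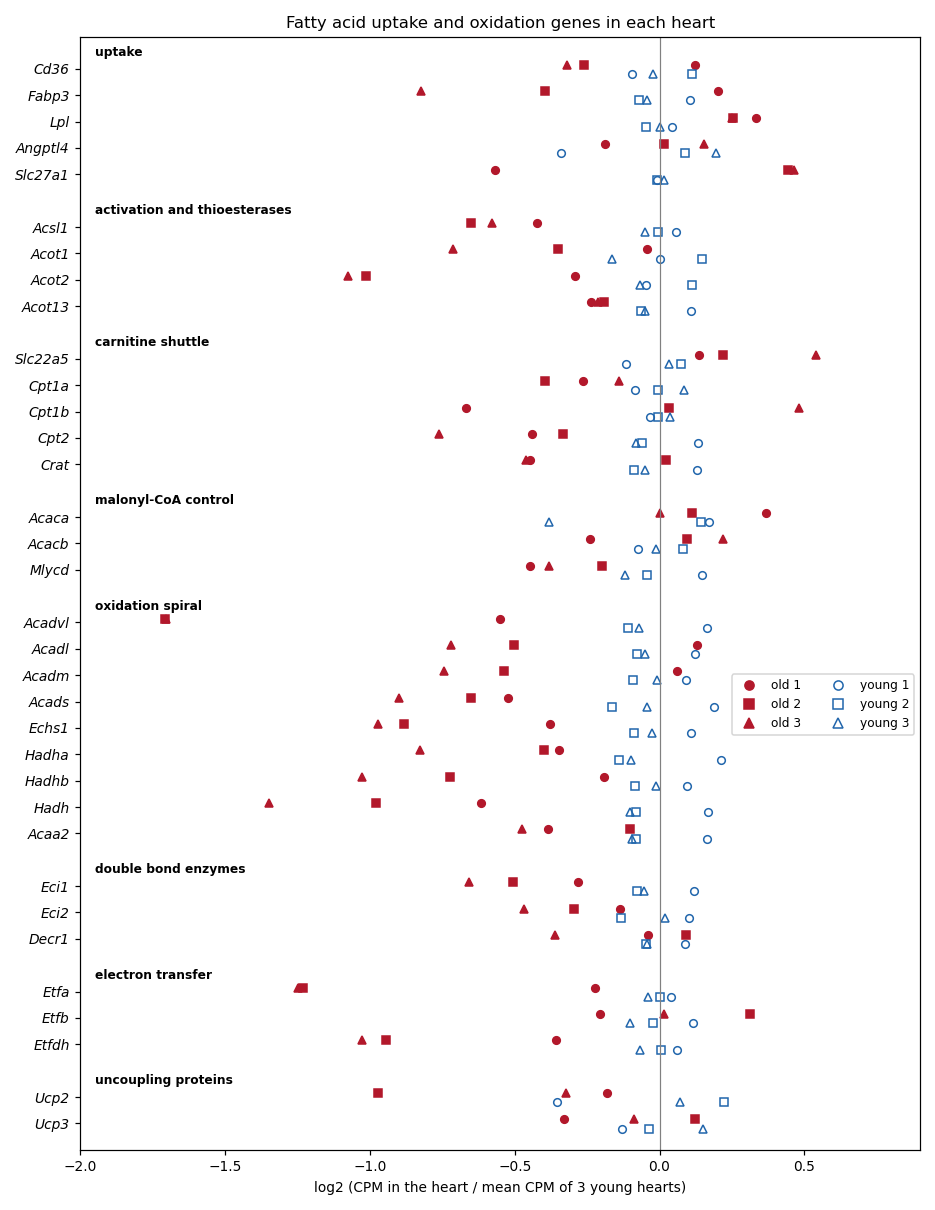
Level of each of the 34 genes in each heart, as log2 of its CPM over the mean CPM of the 3 young hearts. Filled red symbols are old hearts, open blue symbols young hearts, and symbol shape gives the replicate number. In the oxidation spiral old 2 and old 3 lie below all young hearts for all 9 genes (Acaa2 in old 2 only just), whereas old 1 reaches the young values for Acadl and Acadm.

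Heart tissue holds several cell types, and a lower level in bulk RNA can come from fewer cells of a type or from less RNA per cell, which cannot be told apart here. All 12 cardiomyocyte markers were detected in every heart. Of these 5 fell and 1 rose in the edgeR test, where 6.36% of all genes tested fell and 8.72% rose. The markers did not share a direction. All old hearts lay below all young hearts in 7 of the 12 (18.4% of all genes). They lay above them in 3, Myl2, Tnnt2 and Tnnc1 (18.8% of all genes). The 12 markers summed to 63354 to 72304 CPM in old hearts, against 76603 to 84934 CPM in young hearts. Within this sum Myh6 had 11629 to 14672 CPM in old hearts, against 21416 to 24711 CPM in young hearts. Of 9 endothelial markers 3 fell, with a sum of 1226 to 1497 CPM in old hearts, against 1714 to 1826 CPM in young hearts. Of 7 fibroblast markers 1 fell, with a sum of 539.7 to 1284 CPM in old hearts and 840.0 to 1138 CPM in young hearts. Of the 7 macrophage markers counted, 3 rose, with a sum of 356 to 479 CPM in old hearts, against 226 to 281 CPM in young hearts. Adipocytes also use Lpl and Cd36, and the 8 adipocyte markers summed to 38.6 to 55.0 CPM in old hearts, against 34.4 to 37.2 CPM in young hearts, most of it Cidea. The defining marker Adipoq had 8, 4 and 2 counts in old hearts, against 0, 5 and 15 in young hearts, and Lep had at most 1 count in any heart. Of 4 skeletal muscle markers tested 2 fell, and the 7 counted summed to 678 to 886 CPM in old hearts, against 1411 to 1648 CPM in young hearts. The 2 that fell, Acta1 and Ckm, made up most of this sum, and Ckm is also among the cardiomyocyte markers. Ckm had 598, 713 and 523 CPM in old hearts, against 1120, 1025 and 1058 CPM in young hearts. Mylpf (1.26 ± 0.51) and Tnnt3 (0.22 ± 0.35) did not pass, and Myh1, Myh2 and Myh4 had at most 1 count in any heart. Mitochondrially encoded transcripts took 18.4% to 27.6% of counts in old hearts, against 25.1% to 26.8% in young hearts. The part of the other cell types, of cardiomyocyte content and of mitochondrial RNA in the results was not tested.

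Genes of fatty acid uptake did not pass the test in either direction. Of 5 genes, 0 were called by edgeR, DESeq2 or limma-voom, and at an unadjusted p under 0.05 only Lpl was called, as higher. Lpl, which encodes lipoprotein lipase, had 6624, 6273 and 6259 CPM in old hearts, against 5418, 5092 and 5263 CPM in young hearts. All old hearts lay above all young ones, by 0.28 ± 0.12 log2 units (SE, edgeR adjusted p = 0.152). Angptl4, an inhibitor of lipoprotein lipase, had 81.0, 93.3 and 102.7 CPM in old hearts, against 72.9, 98.1 and 105.7 CPM in young hearts, and the ages overlapped (0.00 ± 0.17). Cd36, the fatty acid translocase, had 1838, 1409 and 1354 CPM in old hearts, against 1581, 1823 and 1661 CPM in young hearts (−0.14 ± 0.16).

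The other uptake genes were split by old 1. Fabp3, the heart fatty acid-binding protein, had 3835 CPM in old 1, 2537 in old 2 and 1885 in old 3, against 3590, 3179 and 3241 CPM in young hearts. Old 1 was thus above all young hearts and the other old hearts below them (−0.28 ± 0.23, edgeR adjusted p = 0.432, and −0.60, adjusted p = 0.0104, without old 1). Slc27a1, a fatty acid transport protein with acyl-CoA synthetase activity, went the other way between the hearts, with 303 CPM in old 1, 612 in old 2 and 621 in old 3, against 447, 447 and 455 CPM in young hearts. Its log2 fold change was 0.19 ± 0.24 with all hearts (edgeR adjusted p = 0.627) and 0.45 without old 1 (adjusted p = 0.00584). In GENCODE M21 19.6% of the exonic bases of Fabp3 are shared with other genes, and 37.3% of its 50-base words also occur in transcripts of other genes, first among them the pseudogene Fabp3-ps1, so its reads can be assigned to another gene.

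Activation was the first step at which genes fell. Acsl1, the main long-chain acyl-CoA synthetase of the heart (ENSMUSG00000018796, chromosome 8, 46471037 to 46536051), had 335, 286 and 301 CPM in old hearts, against 467, 447 and 433 CPM in young hearts. Every old heart lay below every young heart, and the gene fell by 31.6%, a log2 fold change of −0.55 ± 0.13 (edgeR adjusted p = 0.0223). Thioesterases do the reverse and split acyl-CoA. Acot2, the mitochondrial enzyme (ENSMUSG00000021226, chromosome 12, 83987861 to 83993873), had 61.95, 37.5 and 35.9 CPM in old hearts, against 73.3, 81.8 and 72.2 CPM in young hearts. It fell by 0.75 ± 0.20 log2 units (edgeR adjusted p = 0.0387), with old 1 nearest to the young hearts.

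Acot1, the cytosolic neighbour of Acot2 on chromosome 12, had 51.4, 41.6 and 32.4 CPM in old hearts, against 53.1, 58.7 and 47.3 CPM in young hearts (−0.34 ± 0.18, edgeR adjusted p = 0.210, and −0.52, adjusted p = 0.0142, without old 1). The log2 ratio of Acot1 to Acot2 was −0.09 ± 0.22 in old hearts and −0.52 ± 0.08 in young hearts (SD, n = 3 each), higher in all 3 old hearts than in any young heart (two-sided exact permutation p = 0.1, which is the lowest value possible for groups of 3, and 0.3 adjusted over 9 such ratios). The 9 pairs were chosen with earlier results of these data known, which the adjustment does not cover. Acot1 and Acot2 are close copies: 19.2% of the 50-base words of Acot1 and 27.7% of those of Acot2 occur in transcripts of other genes, chiefly in each other, so reads may be split between them. Acot13, a small thioesterase of mitochondria, had 258, 266 and 262 CPM in old hearts, against 328, 291 and 294 CPM in young hearts. Its groups did not overlap, but the difference did not pass (−0.21 ± 0.12, edgeR adjusted p = 0.260).

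The 5 carnitine shuttle genes among the 34 did not share a direction. Slc25a20, the carrier of the shuttle, is not among the 34 and was counted in a further list below. It fell by 0.74 ± 0.17 log2 units (edgeR adjusted p = 0.0216). Of the 5 genes 0 passed the edgeR test, with 1 lower and 0 higher at an unadjusted p under 0.05. DESeq2 (8.04% of all genes lower) and limma-voom (6.38%) each called 1 lower. That gene was Cpt2, the carnitine palmitoyltransferase of the inner membrane, with 175, 188 and 140.0 CPM in old hearts, against 260.4, 227 and 224 CPM in young hearts. All old hearts were below all young ones, and the log2 fold change of −0.50 ± 0.15 did not pass the edgeR threshold (adjusted p = 0.0518). Without old 1 it was −0.53 and passed (edgeR adjusted p = 0.0145). Slc22a5, the carnitine transporter of the cell membrane, had 36.9, 39.0 and 48.8 CPM in old hearts, against 31.0, 35.3 and 34.3 CPM in young hearts, higher in every old heart (0.31 ± 0.14, edgeR adjusted p = 0.171, and 0.39, adjusted p = 0.0323, without old 1). It shares 26.3% of its 50-base words with other genes, first Slc22a21, which rose by 1.27 ± 0.26 log2 units (edgeR adjusted p = 0.0149).

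Carnitine palmitoyltransferase of the outer membrane is the step that malonyl-CoA inhibits. The liver form Cpt1a had 51.4, 47.0 and 56.0 CPM in old hearts, against 58.2, 61.6 and 65.6 CPM in young hearts (−0.26 ± 0.13, edgeR adjusted p = 0.176). The muscle form Cpt1b spread widely among old hearts, with 18.1 CPM in old 1, 29.4 in old 2 and 40.2 in old 3, while young hearts had 28.2, 28.7 and 29.5 CPM (0.02 ± 0.24). Cpt1b is known as the main form in adult heart, yet on the per-length FPKM scale it stood at 8.31 ± 3.16 in old and 8.20 ± 0.15 in young hearts, under Cpt1a with 11.4 ± 0.98 in old and 13.8 ± 0.75 in young hearts (SD, n = 3 each). In GENCODE M21 81.4% of the exonic bases of Cpt1b lie also in exons of Gm44502, a model on the same strand. Gm44502 was not found by name among the named gene models of the count table, and the annotation used for counting is not given. Where both models are annotated, reads in shared bases cannot be given to a single gene. The level of Cpt1b and its order against Cpt1a are thus uncertain. Crat, carnitine acetyltransferase, had 280.5, 389 and 278 CPM in old hearts, against 419, 359.8 and 369 CPM in young hearts, where old 2 overlapped the young hearts (−0.28 ± 0.16, edgeR adjusted p = 0.269).

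The genes that set malonyl-CoA did not pass either, 0 of 3 by edgeR, DESeq2 or limma-voom, with 1 lower and 0 higher at an unadjusted edgeR p under 0.05. Acacb, the acetyl-CoA carboxylase at the outer mitochondrial membrane, had 374, 472 and 514 CPM in old hearts, against 419.98, 468 and 439 CPM in young hearts (0.04 ± 0.15). Acaca, the cytosolic carboxylase, had 10.3 to 13.3 CPM in old hearts and 7.92 to 11.6 CPM in young hearts (0.17 ± 0.20). Mlycd, which degrades malonyl-CoA, had 132, 157 and 138 CPM in old hearts, against 199.5, 175 and 166 CPM in young hearts. It was lower in every old heart (−0.34 ± 0.14, edgeR adjusted p = 0.118), and so was the log2 ratio of Mlycd to Acacb, at −1.66 ± 0.21 in old and −1.30 ± 0.19 in young hearts (SD, n = 3 each, exact two-sided permutation p = 0.1, and 0.3 adjusted over the 9 ratios).

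All 9 genes of the oxidation spiral had a log2 fold change below 0, where 48.4% of all genes tested did. Their median was −0.61, and 4 of them fell (6.36% of all genes). DESeq2 called 6 lower (8.04% of all genes) and limma-voom 4 (6.38%). Without old 1 the edgeR test called 8 lower (17.7% of all genes). The 3 old hearts lay below the 3 young ones in 7 of the 9, where 18.4% of all genes tested did so. The genes summed to 4793, 3878 and 3145 CPM in old hearts, against 6183, 5226 and 5366 CPM in young hearts, so the old hearts were lower in this sum without overlap.

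Acyl-CoA dehydrogenases start each turn and differ in the chain length they accept. Acadvl, the very-long-chain enzyme (ENSMUSG00000018574, chromosome 11, 70010183 to 70015411), had 181 CPM in old 1, 81.2 in old 2 and 81.6 in old 3, against 297, 246 and 253 CPM in young hearts. It fell by 56.8%, a log2 fold change of −1.21 ± 0.29 (edgeR adjusted p = 0.0252), which is the largest change among the 34 genes. Its exons share 42.9% of their bases with Dvl2 on the opposite strand, and the strand setting of the counting is not given; Dvl2 itself had 12.4 ± 1.18 CPM in old and 13.95 ± 0.761 CPM in young hearts (SD, n = 3 each). Acads, the short-chain enzyme (ENSMUSG00000029545, chromosome 5, 115110299 to 115119346), had 131, 120.002 and 101 CPM in old hearts, against 215, 168 and 183 CPM in young hearts. It fell by 0.68 ± 0.15 log2 units (edgeR adjusted p = 0.0192), with no overlap between the ages.

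The long- and medium-chain dehydrogenases differed among the old hearts instead. Acadl had 957 CPM in old 1, 618 in old 2 and 532 in old 3, against 953, 830.1 and 845 CPM in young hearts. Acadm had 729 CPM in old 1, 482 in old 2 and 417 in old 3, against 746, 657 and 695 CPM in young hearts. In both genes old 1 lay at the level of young 1 and the other old hearts below all young hearts. Their log2 fold changes were −0.32 ± 0.21 and −0.37 ± 0.20 with all hearts (edgeR adjusted p = 0.320 and 0.237), and −0.61 and −0.64 without old 1 (adjusted p = 0.00368 and 0.00239).

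Echs1 encodes the short-chain enoyl-CoA hydratase (ENSMUSG00000025465, chromosome 7, 140105710 to 140116476). It had 213, 149.8 and 141 CPM in old hearts, against 298, 259.6 and 271 CPM in young hearts, and fell by 0.72 ± 0.17 log2 units (edgeR adjusted p = 0.0256). Hadh encodes the short-chain hydroxyacyl-CoA dehydrogenase of the matrix (ENSMUSG00000027984, chromosome 3, 131233419 to 131272101). It had 279.7, 218 and 169 CPM in old hearts, against 482, 405 and 399 CPM in young hearts. It fell by 48.2%, a log2 fold change of −0.95 ± 0.19 (edgeR adjusted p = 0.0129), and all old hearts lay below the young ones.

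Hadha and Hadhb encode the α and β subunits of the trifunctional protein, which handles long chains at the inner membrane. Hadha had 796, 768 and 571 CPM in old hearts, against 1172, 919 and 947 CPM in young hearts. Hadhb had 743, 515 and 417 CPM in old hearts, against 907, 801 and 842 CPM in young hearts. Every old heart was below every young heart for both subunits, but neither passed the edgeR test, with log2 fold changes of −0.51 ± 0.17 and −0.61 ± 0.20 and the same adjusted p of 0.0712. Without old 1 both passed, Hadha at −0.60 (edgeR adjusted p = 0.0142) and Hadhb at −0.87 (adjusted p = 0.000743). The log2 ratio of Hadha to Hadhb was 0.38 ± 0.25 in old and 0.25 ± 0.11 in young hearts and overlapped between the ages (SD, n = 3 each, exact two-sided permutation p = 0.5). The ratio of Hadh to Hadha was −1.70 ± 0.16 in old and −1.24 ± 0.05 in young hearts, lower in every old heart (exact p = 0.1, and 0.3 adjusted over the 9 ratios). Of the 50-base words of Hadhb 19.7% occur in other transcripts, first the processed pseudogene Gm13910, which had 1975, 696 and 564 counts in old hearts, against 2572, 2329 and 2629 in young hearts, so the counts of Hadhb may be incomplete. Acaa2, the thiolase that ends the turn, had 762, 926 and 716 CPM in old hearts, against 1114, 939 and 931 CPM in young hearts (−0.31 ± 0.15, edgeR adjusted p = 0.182).

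**Figure D2:**
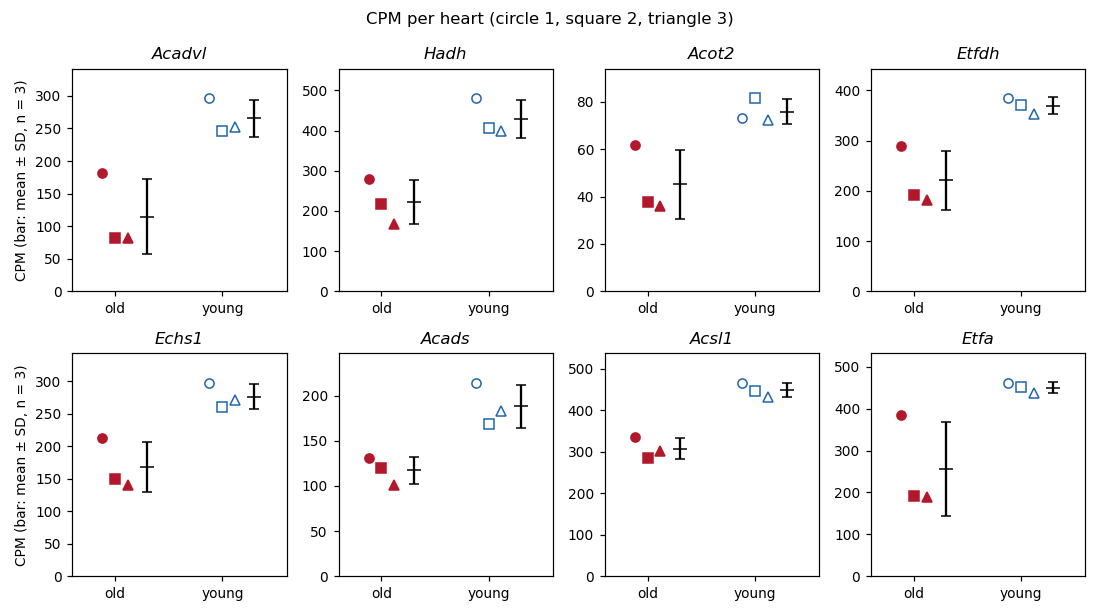
CPM per heart of the 7 genes that fell and of Etfa, with old hearts at the left of each panel and young hearts at the right, and the mean with its SD beside each group (n = 3). Each axis starts at 0. In all 8 panels the old hearts lie below the young ones, and in each old 1 is the highest of the old hearts.

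The promoters of Hadha and Hadhb face each other. In GENCODE M21 Hadha begins at 30155162 on the minus strand of chromosome 5 and Hadhb at 30155248 on the plus strand, 86 bases away. Whether a single stretch drives both was not tested. The Hadhb window is shown with the promoters of 3 genes that fell, which include the only 2 of the 7 that hold AGGTCA. The windows run from 250 bases before to 50 bases after the RefSeq start (GRCm38.p6), 5′ to 3′ along the gene. The RefSeq start of Hadha differs from that in GENCODE and lies outside the Hadhb window (Hadha window 30154931 to 30155230). Capitals mark matches on either strand to AGGTCA (the core of nuclear receptor sites such as those of PPARs), GGGCGG (the GC box), CCAAT and the NRF1 site (GCGCA and GCGC with any base between them).
Hadhb promoter, chr5:30155003-30155302, plus strand: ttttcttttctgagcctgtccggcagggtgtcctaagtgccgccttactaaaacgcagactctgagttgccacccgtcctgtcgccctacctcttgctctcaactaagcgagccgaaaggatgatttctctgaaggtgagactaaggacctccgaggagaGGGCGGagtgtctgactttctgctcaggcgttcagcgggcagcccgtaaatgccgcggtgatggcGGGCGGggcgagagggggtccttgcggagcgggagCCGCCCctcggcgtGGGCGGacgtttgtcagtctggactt
Acadvl promoter, chr11:70015379-70015678, minus strand: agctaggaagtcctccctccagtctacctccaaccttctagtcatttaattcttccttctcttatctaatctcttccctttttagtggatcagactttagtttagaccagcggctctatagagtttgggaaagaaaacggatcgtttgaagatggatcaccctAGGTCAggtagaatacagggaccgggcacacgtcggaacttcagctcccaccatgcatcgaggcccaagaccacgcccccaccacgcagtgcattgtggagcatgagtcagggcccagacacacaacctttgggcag
Echs1 promoter, chr7:140116372-140116671, minus strand: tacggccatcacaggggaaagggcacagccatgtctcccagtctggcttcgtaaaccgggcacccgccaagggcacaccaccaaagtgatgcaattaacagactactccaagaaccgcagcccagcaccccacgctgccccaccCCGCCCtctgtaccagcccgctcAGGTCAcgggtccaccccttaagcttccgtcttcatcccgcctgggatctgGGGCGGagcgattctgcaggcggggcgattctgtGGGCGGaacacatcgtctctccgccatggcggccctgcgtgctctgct
Etfdh promoter, chr3:79628718-79629017, minus strand: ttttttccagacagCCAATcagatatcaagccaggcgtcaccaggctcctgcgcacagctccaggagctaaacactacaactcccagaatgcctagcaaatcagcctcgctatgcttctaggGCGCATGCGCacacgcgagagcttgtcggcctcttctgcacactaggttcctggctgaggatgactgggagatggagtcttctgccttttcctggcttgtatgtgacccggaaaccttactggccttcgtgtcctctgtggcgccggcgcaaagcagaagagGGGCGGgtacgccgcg
The Hadhb window, which overlaps that of Hadha by 228 bases, holds GC boxes and neither AGGTCA nor the NRF1 letters. Acadvl holds 1 AGGTCA and none of the other motifs, Echs1 holds 1 AGGTCA beside GC boxes, and Etfdh holds the NRF1 letters, a CCAAT and a GC box. RefSeq windows were matched for 27 of the 34 genes, 30 windows in all; Acaa2, Acot13, Angptl4, Cpt1b, Crat, Decr1 and Lpl were not matched. AGGTCA was in 23.3% of these windows, against 16.3% of the 32851 mouse windows, GGGCGG in 63.3% against 35.7%, CCAAT in 46.7% against 37.4%, and the NRF1 letters in 10% against 4.6%. The direct repeat of AGGTCA with a single base between, the ideal site of PPAR with RXR, was in 0 of the 30 windows and in 0.0396% of all windows, and TCAAGGTCA, the ERR site, which contains AGGTCA, in 0 and in 0.423%. Of the 7 genes that fell, all with a window, 2 held AGGTCA (Acadvl and Echs1), 5 GGGCGG, 4 CCAAT and 1 the NRF1 letters. These are matches of letters in a short window and were not tested. Some windows lie inside the GENCODE gene model, away from its start, those of Acaca, Acacb, Cd36, Cpt1a and Etfdh among them. Slc27a1 and Acsl1 were counted with multiple windows, and the 32851 windows were not limited to tested genes.

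Enzymes that deal with double bonds in unsaturated fatty acids did not pass, 0 of 3 by edgeR, with 1 lower and 0 higher at an unadjusted p under 0.05. DESeq2 (8.04% of all genes lower) and limma-voom (6.38%) each had 1 lower. Eci1, a mitochondrial enoyl-CoA isomerase, had 281, 240.4 and 216 CPM in old hearts, against 371, 324 and 329.5 CPM in young hearts. The groups did not overlap and the log2 fold change was −0.47 ± 0.14 (edgeR adjusted p = 0.0531, and −0.58, adjusted p = 0.00335, without old 1). The isomerase Eci2 had 97.9 to 123 CPM in old hearts and 124 to 145 CPM in young hearts (−0.29 ± 0.14, edgeR adjusted p = 0.173, and −0.38, adjusted p = 0.0242, without old 1). Decr1, dienoyl-CoA reductase, overlapped between the ages, with 262 to 359 CPM in old hearts and 326 to 357 CPM in young hearts (−0.09 ± 0.15).

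Of 3 electron transfer genes 1 fell by edgeR (6.36% of all genes), while DESeq2 (8.04%) and limma-voom (6.38%) each called 2 lower. Etfdh, the dehydrogenase that hands electrons to ubiquinone (ENSMUSG00000027809, chromosome 3, 79603788 to 79629500), had 288, 192 and 181 CPM in old hearts, against 385, 371 and 352 CPM in young hearts, and fell by 0.74 ± 0.18 log2 units (edgeR adjusted p = 0.0275). Etfa, the α subunit of electron transfer flavoprotein, had 386 CPM in old 1, 192 in old 2 and 189.6 in old 3, against 463, 451 and 438 CPM in young hearts. Its log2 fold change of −0.82 ± 0.26 did not pass with all hearts (edgeR adjusted p = 0.0601) and was −1.24 without old 1 (adjusted p = 6.07e-05). With any other single heart left out the edgeR adjusted p of Etfa was 0.134 to 0.188. Etfb, the β subunit, had 705, 1010.2 and 822 CPM in old hearts, against 881, 801 and 758 CPM in young hearts (0.06 ± 0.16, edgeR adjusted p = 0.836).

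The log2 ratio of Etfa to Etfb was −0.87 in old 1, −2.40 in old 2 and −2.12 in old 3, against −0.93, −0.83 and −0.79 in young hearts. Old 1 lay among the young hearts and the other old hearts below them. The mean difference was −0.94 (two-sided exact permutation p = 0.2, where groups of 3 allow no p under 0.1, and 0.45 adjusted over the 9 ratios), and −1.41 without old 1. Etfb shares 58.2% of its exonic bases in GENCODE M21 with other models on the same strand, first Gm45233. That model was not found by name among the named gene models of the count table, and the count of Etfb is uncertain.

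The uncoupling proteins did not pass, 0 of 2 by edgeR, DESeq2 or limma-voom and 0 at an unadjusted edgeR p under 0.05. Ucp2 had 103.6, 59.9 and 94.0 CPM in old hearts, against 92.1, 137 and 124 CPM in young hearts (−0.45 ± 0.22, edgeR adjusted p = 0.184), and without old 1 it was called lower (−0.61, edgeR adjusted p = 0.0389). Ucp3, the muscle form, had 109.8, 150.3 and 130.02 CPM in old hearts, against 126, 135 and 153 CPM in young hearts (−0.09 ± 0.15). The ages overlapped in both genes.

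**Figure D3:**
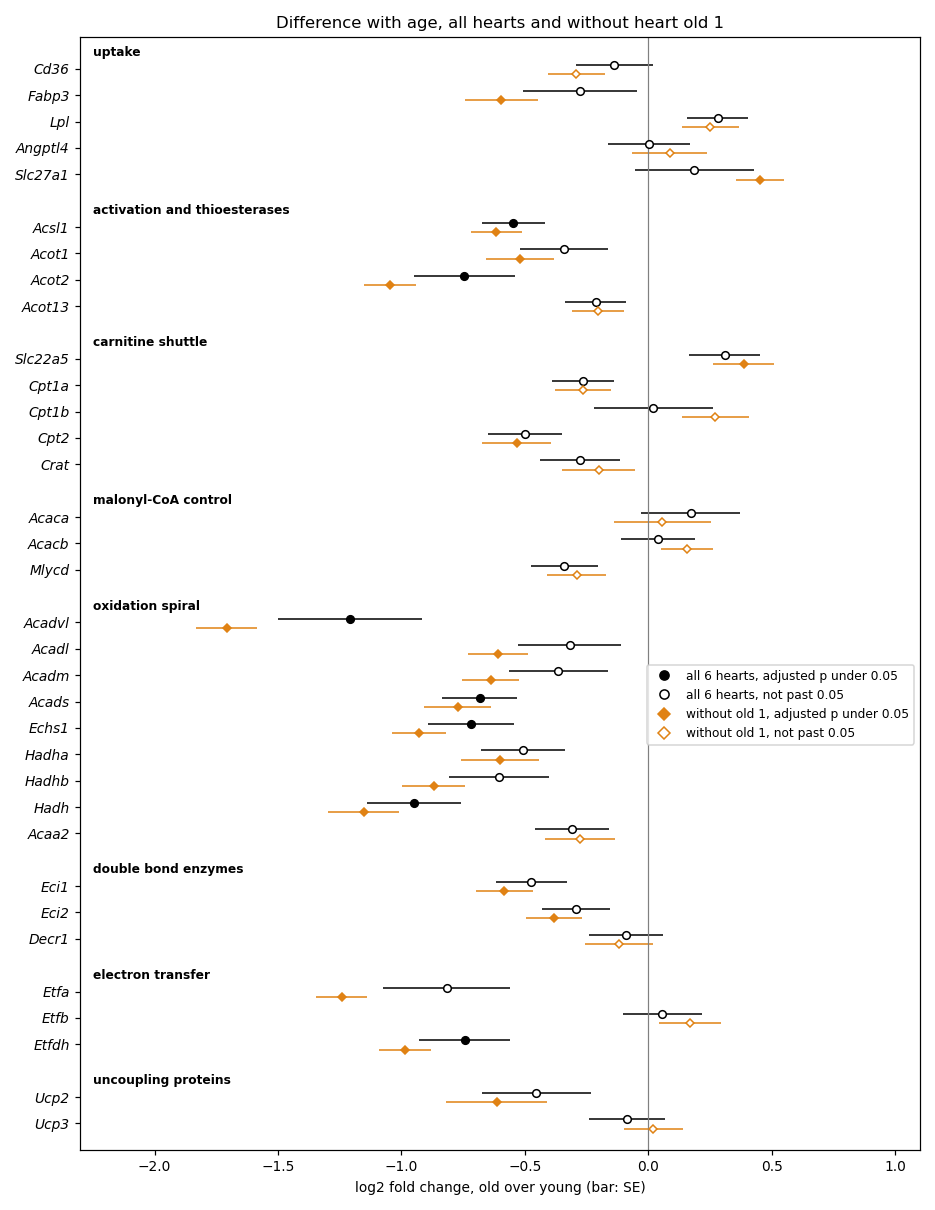
Log2 fold change of old over young for the 34 genes with its SE, from all 6 hearts (black circles) and without old 1 (orange diamonds). Filled symbols passed an edgeR adjusted p of 0.05, which 7 did with all hearts and 20 without old 1, 18 of them lower and 2 higher (Slc27a1 and Slc22a5).

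Levels between genes are ranked per length, from the authors' FPKM values, which were used for 33 of the 34 genes (Acaca was not among them). Fabp3 was the highest, at 3192 ± 1127 FPKM in old and 3890.5 ± 268 FPKM in young hearts (SD, n = 3 each here and below). Lpl came next with 896 ± 22.2 FPKM in old and 741 ± 23.5 FPKM in young hearts, ahead of Etfb with 711 ± 135 in old and 685 ± 55.3 in young hearts. The ranges of mean ± SD of Lpl and Etfb overlapped in young hearts and did not in old hearts. Acaa2, at 506 ± 73.2 FPKM in old and 630.1 ± 67.7 FPKM in young hearts, was the highest gene of the spiral. At the low end stood Slc22a5, with 12.9 ± 2.01 FPKM in old and 10.5 ± 0.695 FPKM in young hearts, both Cpt1 genes, and in old hearts also Ucp2, with 11.7 ± 3.05 FPKM in old and 16.1 ± 3.16 FPKM in young hearts. Acadvl had 40.7 ± 20.1 FPKM in old and 94.9 ± 10.2 FPKM in young hearts.

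**Figure D4:**
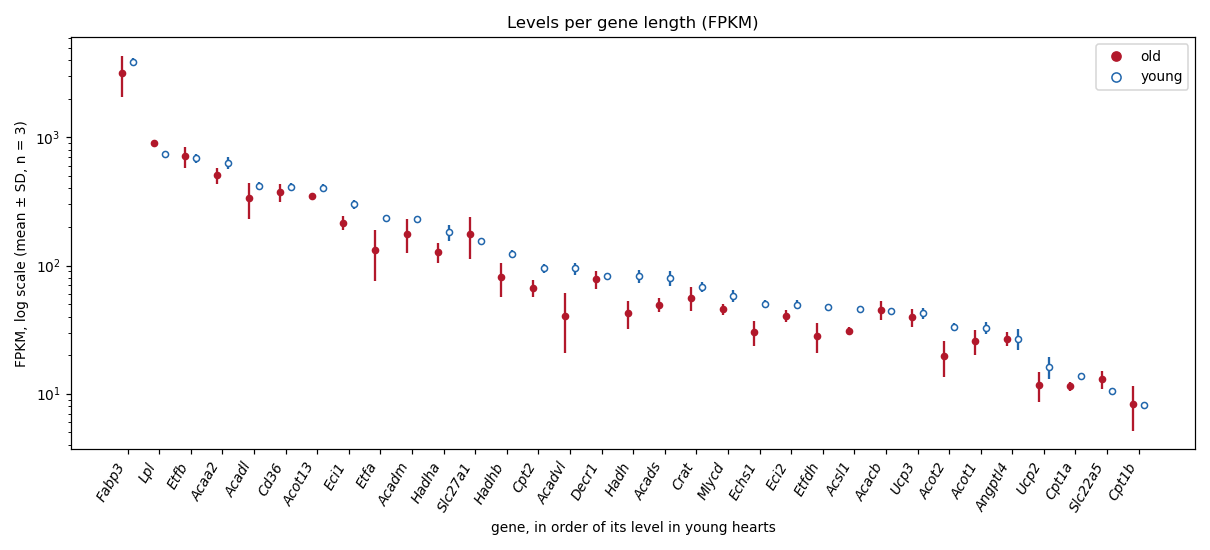
FPKM of 33 genes on a log axis, as mean ± SD of 3 hearts, with old hearts (red, filled) left of young hearts (blue, open) for each gene, in order of the level in young hearts. Fabp3 leads at 3192 FPKM in old and 3890.5 FPKM in young hearts, and Cpt1b is the lowest at 8.31 FPKM in old and 8.20 FPKM in young hearts.

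Other genes of fatty acid handling were counted in 3 lists. These lists were chosen with earlier results of these data known, so their shares and medians are not separate support. The first held 20 other genes grouped under the mitochondrial shuttle and oxidation, all tested. This group also took in branched-chain and propionate steps, mitochondrial fatty acid synthesis (Mecr, Mcat and Oxsm), Acsf3 and Cpt1c. Of the 20 genes 6 fell (30.0%, against 6.36% of all genes) and 0 rose by edgeR, with a median log2 fold change of −0.43. At an unadjusted p under 0.05 10 were lower and 1 higher, and DESeq2 called 9 lower (8.04% of all genes) and 0 higher. Slc25a20, the carnitine-acylcarnitine carrier between Cpt1 and Cpt2, had 104, 79.6 and 67.2 CPM in old hearts, against 151, 133 and 134 CPM in young hearts, and fell by 0.74 ± 0.17 log2 units (edgeR adjusted p = 0.0216). Among those that fell were also Mut (−0.85 ± 0.21), the methylmalonyl-CoA mutase of propionate breakdown, and Hibadh (−0.82 ± 0.21) and Hibch (−0.80 ± 0.18), enzymes of valine breakdown.

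In the list of other uptake and activation genes 21 of 23 were tested, of which 1 fell and 1 rose (4.76% each, against 6.36% and 8.72% of all genes), with a median of −0.13. Acsl6, another acyl-CoA synthetase, rose by 1.11 ± 0.17 log2 units, from a low level, with 11.9, 12.4 and 14.2 CPM in old hearts, against 5.43, 6.51 and 5.86 CPM in young hearts (edgeR adjusted p = 0.00511). Cav1, caveolin of endothelial and other cells, had 279, 282 and 259 CPM in old hearts, against 458, 478 and 442 CPM in young hearts, and fell by 0.75 ± 0.12 log2 units (edgeR adjusted p = 0.00602). The endothelial markers given above were lower in sum, with 3 of 9 called, and a link to Cav1 was not tested. Slc27a3 (1.23 ± 0.38) and Fabp5 (−0.40 ± 0.15) had the next smallest p and did not pass (edgeR adjusted p = 0.058 and 0.0923).

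Peroxisomes shorten very long and branched chains. Of 24 genes 22 were tested, of which 2 fell (9.09%, near the 6.36% of all genes) and 0 rose by edgeR, with a median of −0.16. At an unadjusted p under 0.05 4 were lower and 1 higher, and DESeq2 called 3 lower (8.04% of all genes) and 0 higher. Hsd17b4, the bifunctional enzyme, had 53.6, 39.0 and 39.6 CPM in old hearts, against 69.8, 72.4 and 74.2 CPM in young hearts (−0.71 ± 0.15, edgeR adjusted p = 0.0155). Amacr, a racemase for branched chains, fell by 0.73 ± 0.19 log2 units (edgeR adjusted p = 0.0334). Phyh (−0.80 ± 0.24) and Pex11a (0.38 ± 0.12) did not pass (edgeR adjusted p = 0.0535 and 0.0648).

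**Figure D5:**
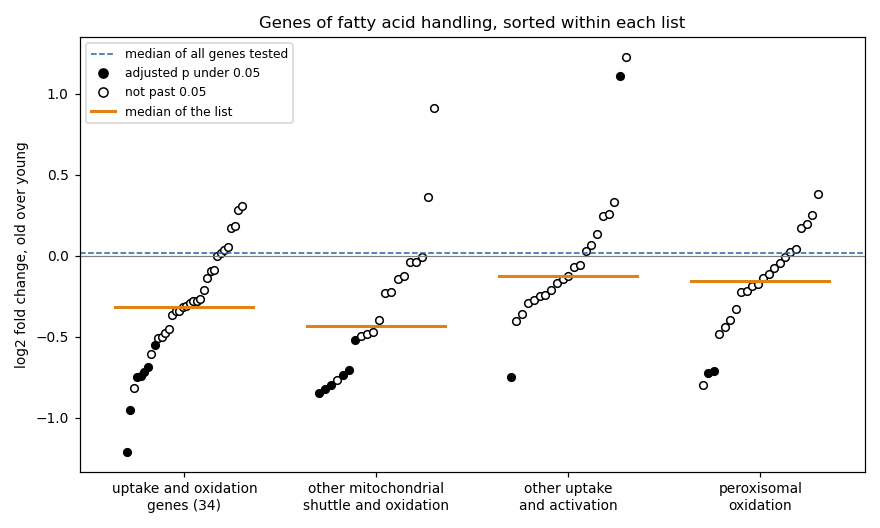
Log2 fold change of old over young for the 34 genes and for the tested genes of 3 further lists, sorted within each list. Filled circles passed an edgeR adjusted p of 0.05, orange bars are list medians (−0.31, −0.43, −0.13 and −0.16 from left to right), and the dashed line is the median of all genes tested, 0.02.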

How the data were processed

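RNA of 3 old and 3 young hearts was sequenced, with 13673856 to 15583364 counted reads per library. HISAT2, featureCounts and Subread, and the build GRCm38.p6, are named in the submitters' processing notes. The deposited counts are whole reads per gene, and the deposited FPKM values scale them to gene length and depth. How strand and multi-mapped reads were handled, and which annotation was used, is not given in the sources used here. Extraction text in the labels names NRVMs, while the other labels say heart tissue.

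Gene models without a name (571, 0.295% to 0.368% of counts) were left out. In R 4.3.3, edgeR 4.0.16 (filterByExpr, TMM, quasi-likelihood F test, Benjamini-Hochberg over all genes, threshold 0.05) compared old with young; the SE is the absolute log2 fold change over the square root of F. The fits were tested on simulated data. Ratios of gene pairs were compared by exact permutation. The test was repeated with other scaling factors (RLE, upper quartile), other filters, DESeq2 1.42.0, limma 3.58.1 (voom, and trend on log2 FPKM with pseudocounts of 1 and 0.1), a block for the replicate number, and every heart omitted in turn. Genes, lists and pairs were chosen with earlier results of these data known. From the further lists the 4 genes with the smallest p were named. Coordinates, exon overlaps and 50-base words come from GENCODE M21 (GRCm38), promoters from RefSeq.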

Additional observations from a re-analysis of the deposited data

How the results depend on the processing

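The count of 7 lower genes was 7 with RLE factors, a filter of 1 CPM in 3 samples and FPKM with either pseudocount. In these settings with 7 the share of all genes that were lower was 5.94% to 6.64%. It was 9 genes with upper-quartile factors (7.51% of all genes lower) and 10 with limma-voom (6.38%). It was 12 both without a low-count filter (4.93%) and with DESeq2 (8.04%). The 7 genes called with all hearts were among those called in each of these settings; Hadha, Hadhb, Etfa, Eci1 and Cpt2 were added in the settings with 12, and the cause was not tested. Leaving out 1 heart gave 0 to 18 lower genes, 0 to 2 higher genes and 539 to 5570 calls over all genes. No setting turned the sign of a called gene. The hearts share replicate numbers. Deviations of same-numbered hearts from their age means had r = −0.09, −0.07 and 0.03, against −0.10 to 0.15 for differently numbered hearts. With 3 hearts per age these values cannot exclude a weak pairing. With the replicate number as a block 9 genes were lower (5.11% of all genes), all 7 among them. Precision rests on 3 hearts per age; no detection limit was computed.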
